A study of Homo sapiens with 9 samples.

Results

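The HOX genes encode homeodomain transcription factors that give cells along the body axis their regional identity. In humans they lie in 4 clusters, HOXA, HOXB, HOXC and HOXD, and the genes at the same place in each cluster form a paralogue group, numbered from 1 at the anterior (3′) end to 13 at the posterior (5′) end. The even-skipped homologues EVX1 and EVX2 lie beyond the group 13 genes of HOXA and HOXD. Posterior HOX genes pattern the trunk, limbs and urogenital tract, and HOXB13 stays active in the adult prostate, where it works with the androgen receptor. Polycomb complexes keep HOX genes silent and Trithorax complexes keep them active, and PBX and MEIS proteins help HOX proteins to select their DNA sites.

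The genes described here are all the protein-coding genes of the table named HOXA, HOXB, HOXC or HOXD followed by a number, together with EVX1 and EVX2. There were 41 of them among 67071 gene identifiers: 11 in HOXA, 10 in HOXB, 9 in HOXC, 9 in HOXD and the 2 EVX genes. A second identifier for HOXC5, which is not protein coding, had a count of 0 in every library and was left out.

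The cells were 22Rv1, an established line of androgen receptor-positive human prostate carcinoma, and their polyadenylated RNA was sequenced. CHD9, a chromodomain helicase of the chromatin remodellers, was knocked down with a first short hairpin (shCHD9_1, 3 libraries) or a second one (shCHD9_2, 3 libraries). Control cells carried a hairpin against GFP (shGFP, 3 libraries) and are labelled wild type. Nothing in the labels says how the hairpins were delivered, for how long they acted, whether the cells were clones or whether replicates came from separate cultures, so the p-values given here speak to library-to-library spread, which may be technical.

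CHD9 itself checked the labels. It averaged 15.4 ± 1.07 CPM (counts scaled to the library total, SD, n = 3) with shCHD9_1 and 18.8 ± 0.464 CPM with shCHD9_2, against 22.2 ± 1.42 CPM with shGFP. The log2 fold changes were -0.52 ± 0.07 (SE, adjusted p = 7.2e-08) and -0.24 ± 0.07 (adjusted p = 0.006), so most of the CHD9 mRNA was still present with either hairpin. The second call was lost without shGFP replicate 3, at -0.20 (adjusted p = 0.054). Total counts lay between 20572689 and 27275052 with shCHD9_1, between 20884244 and 31968602 with shCHD9_2 and between 18911142 and 26103588 with shGFP. Of the luminal prostate markers, 10 of 10 reached 1 CPM, with summed levels of 2462 to 2494 CPM, 2399 to 2426 CPM and, in shGFP, 2272 to 2298 CPM. HOXB13 belongs to that list. The basal marker KRT5, the neuroendocrine marker CHGA, the T cell marker CD3E and the endothelial marker CDH5 had no count in any library. Other markers of the first 2 lists were present. Of 5 neuroendocrine markers, 2 reached 1 CPM, ENO2 at 256, 263 and, in shGFP, 257 CPM and SYP at 4.70, 2.54 and, in shGFP, 2.14 CPM. Of 4 basal markers, 1 did, NGFR at 2.59, 3.27 and, in shGFP, 2.90 CPM. Of 5 leukocyte and 3 endothelial markers, 0 reached 1 CPM. Of 6 fibroblast markers, 3 reached 1 CPM, and the list summed to 11.0 to 12.5 CPM, 10.6 to 13.4 CPM and, in shGFP, 8.99 to 9.66 CPM. The part of these markers in the results below was not tested.

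The promoters of 4 HOXA-cluster genes are shown first. HOXA13 and EVX1 are shown because their rise differed between the hairpins, and HOXA7 and HOXA9 because they fell together, as given below. Each is the RefSeq window (GRCh38.p14) of 300 bases written 5′ to 3′ on the gene's strand. Matches on either strand to the CCAAT box (CCAAT) and, in HOXA9, to the TATA box (TATAAA) and the posterior HOX core (TTTATNG) are in capitals.

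HOXA13, chr7:27200042-27200341, minus strand: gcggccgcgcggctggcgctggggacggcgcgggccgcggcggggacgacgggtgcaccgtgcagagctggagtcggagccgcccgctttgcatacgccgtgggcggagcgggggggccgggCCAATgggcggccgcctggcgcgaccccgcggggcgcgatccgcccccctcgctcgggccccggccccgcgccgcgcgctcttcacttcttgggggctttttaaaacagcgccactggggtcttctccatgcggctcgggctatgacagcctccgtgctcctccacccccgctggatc
EVX1, chr7:27242552-27242851, plus strand: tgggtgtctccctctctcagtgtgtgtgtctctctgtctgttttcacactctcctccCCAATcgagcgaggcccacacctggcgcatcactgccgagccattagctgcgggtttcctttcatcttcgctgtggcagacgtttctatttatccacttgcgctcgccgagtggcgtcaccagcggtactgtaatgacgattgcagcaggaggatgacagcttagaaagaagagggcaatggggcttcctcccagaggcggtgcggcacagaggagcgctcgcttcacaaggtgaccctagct
HOXA7, chr7:27156626-27156925, minus strand: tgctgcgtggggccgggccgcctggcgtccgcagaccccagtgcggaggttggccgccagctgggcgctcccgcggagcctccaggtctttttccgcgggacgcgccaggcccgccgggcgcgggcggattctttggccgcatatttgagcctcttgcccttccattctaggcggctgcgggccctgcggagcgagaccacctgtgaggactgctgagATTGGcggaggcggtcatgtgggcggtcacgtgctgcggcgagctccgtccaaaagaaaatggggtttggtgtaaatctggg
HOXA9, chr7:27165488-27165787, minus strand: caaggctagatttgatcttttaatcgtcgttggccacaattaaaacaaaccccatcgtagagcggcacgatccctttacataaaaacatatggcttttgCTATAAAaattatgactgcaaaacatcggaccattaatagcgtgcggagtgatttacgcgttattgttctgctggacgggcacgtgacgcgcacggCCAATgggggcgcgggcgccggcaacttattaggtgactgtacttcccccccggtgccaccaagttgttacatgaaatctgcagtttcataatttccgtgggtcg

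The HOXA13 window has a GC content of 76.3% and 44 CpG dinucleotides, the most GC-rich of these 4. HOXA7 follows with 68.0% and 31 CpG, EVX1 with 57.0% and 17 CpG and HOXA9 with 48.0% and 22 CpG. In HOXA9 the TATA box match overlaps the posterior HOX core match. The RefSeq table holds 29 windows for 22 of the 41 genes, HOXB13 not among them. HOXB1 is the only HOXB gene and HOXC4 and HOXC5 the only HOXC genes there, while HOXA3 has several windows. The 29 windows have a median GC content of 57.0% and a median of 21 CpG, against 58.7% and 14 over all 35116 windows. A CCAAT box was found in 19 of the 29 windows (65.5%) and in 34.6% of all windows, and a TATA box in 6 (20.7%) and in 11.5%. The posterior HOX core was in 8 (27.6%) and in 9.73% of all windows, and the joint PBX-HOX site TGATNNAT in 4 (13.8%) and in 7.40%. HOXC4 and HOXC5 are listed with the same window, which is counted for each. Windows of the same gene can overlap or lie close together, and a match is not a site in use.

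Of the 41 genes, 31 passed the low-count filter and were tested in edgeR beside 16855 genes in all. When both CHD9 hairpins were averaged and set against shGFP, 10 were higher and 7 lower at a Benjamini-Hochberg adjusted p under 0.05, and 14 did not pass. Over all tested genes 45.5% passed, 22.3% higher and 23.2% lower. With offsets for GC content and exonic length the split turned to 8 higher and 9 lower, so no direction is given for the family. The median log2 fold change was 0.03 for the tested HOX and EVX genes and 0.00 for all genes, and the median of its size was 0.31 against 0.17. The 2 sets were not matched for count level, and the SE of a single gene reached 0.40 (HOXB2). The tested noncoding RNAs of the clusters, of which 3 of 13 passed, had a median size of 0.42. A larger movement of the HOX genes was therefore not shown.

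With shCHD9_1 against shGFP, 8 were higher and 7 lower, where 47.3% of all genes passed, 23.9% higher and 23.4% lower (6 and 9 with the GC and length offsets). With shCHD9_2 against shGFP, 8 were higher and 5 lower, where 35.7% passed, 17.2% higher and 18.5% lower (6 and 7 with the offsets). The comparisons share the shGFP libraries. 11 genes passed in the same direction with each hairpin, where 26.8% of all genes did. HOXA5, HOXA13, HOXB8, HOXB9, HOXB13 and HOXC4 were higher and HOXA7, HOXA9, HOXC10, HOXC11 and HOXC13 lower. Between the hairpins, 3 of the 31 were higher with shCHD9_1 and 2 lower (2 and 3 with the offsets), where 29.2% of all genes passed, 15.6% higher and 13.6% lower.

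In 13 of the 31, all 6 knockdown libraries lay to one side of all 3 shGFP libraries, 6 above and 7 below, as in 31.7% of all genes. The shCHD9_1 and shGFP libraries were apart in 17 (53.9% of all genes), the shCHD9_2 and shGFP libraries in 16 (44.1%), and the shCHD9_1 and shCHD9_2 libraries in 9 (39.6%).

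**Figure D1:**
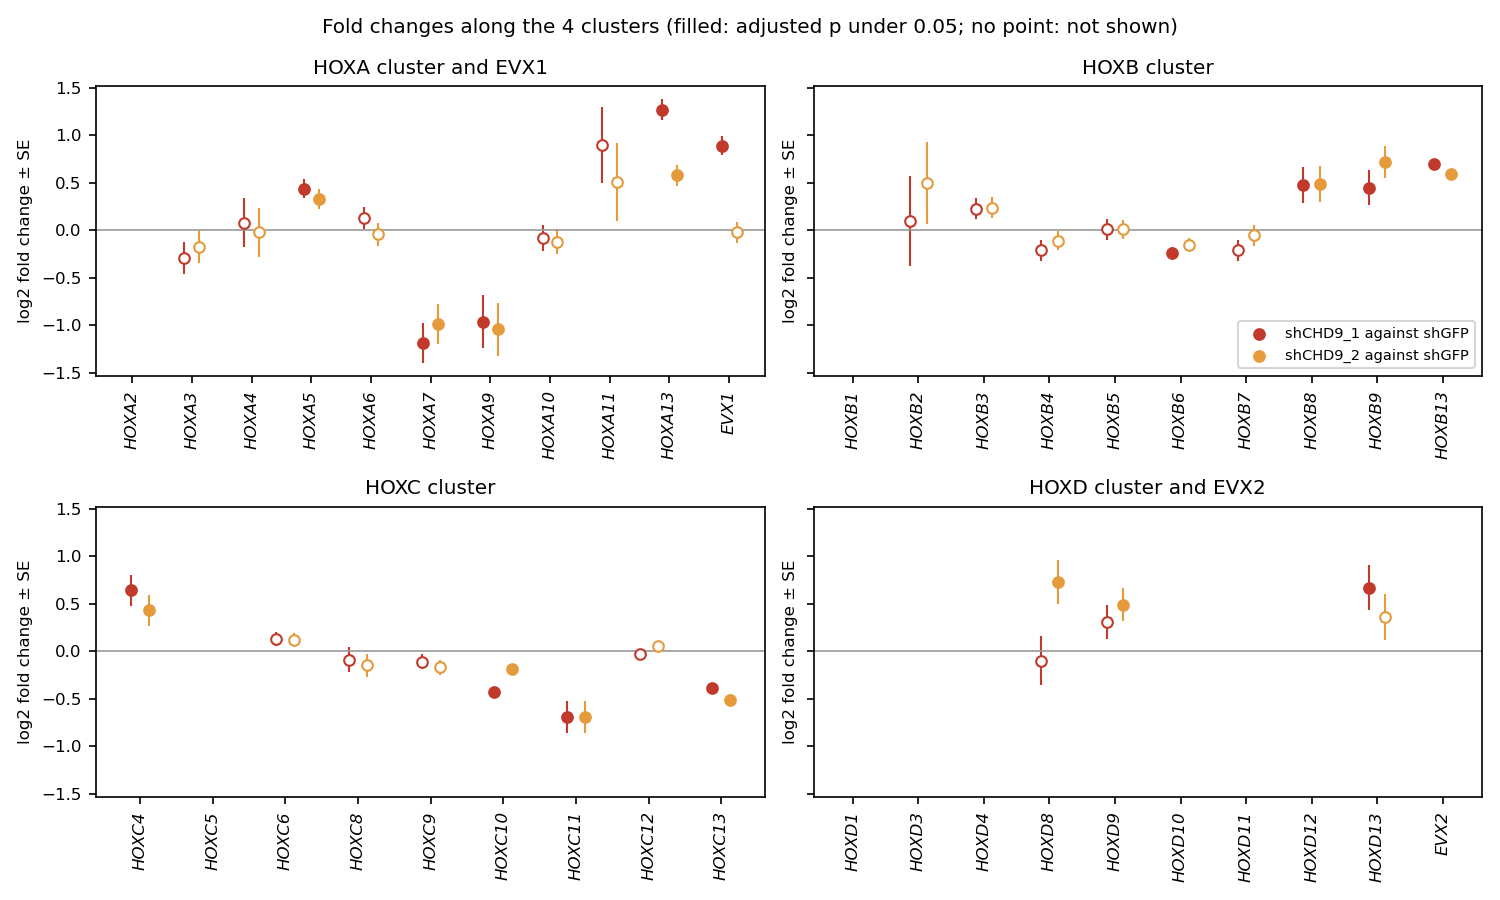
Log2 fold change against shGFP of 30 tested genes along the 4 clusters, from anterior to posterior, for shCHD9_1 (red) and shCHD9_2 (orange), bars showing 1 SE. Filled points passed an adjusted p under 0.05 and genes without a point were not tested or are not reported here; at the posterior end of HOXC, HOXC13, HOXC11 and HOXC10 lie below 0 on both sides of HOXC12 (-0.03 and 0.05), and HOXA13 and HOXB13 lie above 0.

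The most abundant HOX mRNA was HOXB13, and its margin widened in knockdown cells. Levels between genes are compared here as CPM per kb of exonic length. HOXB13 (chromosome 17, 48724763 to 48729178, minus strand; ENSG00000159184.8) stood at 77.9 ± 0.774 with shCHD9_1 and 72.5 ± 0.701 with shCHD9_2, against 48.1 ± 0.703 with shGFP (SD, n = 3). Next in shGFP came HOXC10 at 17.9 ± 0.911, HOXC13 at 14.6 ± 0.719, HOXC12 at 13.5 ± 0.552, HOXC9 at 10.4 ± 0.523 and HOXB6 at 7.89 ± 0.25. The SD ranges of HOXC13 and HOXC12 overlapped, and the others of these were apart. HOXB7 at 6.02 ± 1.04 and HOXC6 at 5.31 ± 0.356 overlapped, and so did HOXB5, HOXA5 and HOXA6, between 4.56 and 4.29. The lowest tested genes in shGFP were HOXA11 at 0.203 ± 0.101 and HOXB2 at 0.177 ± 0.109.

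HOXB13 made up 43.1% ± 0.594 of the summed per-kb HOX level with shCHD9_1 and 41.0% ± 0.287 with shCHD9_2, against 30.4% ± 0.327 with shGFP. Without HOXB13, the other HOX genes summed to 260 ± 4.95 CPM, 263 ± 5.56 CPM and, in shGFP, 274 ± 4.12 CPM. By cluster, HOXA summed to 43.7 ± 1.28, 37.3 ± 2.08 and, in shGFP, 36.1 ± 1.94 CPM. HOXC summed to 152 ± 2.94, 157 ± 4.38 and, in shGFP, 172 ± 3.12 CPM. HOXD was the least abundant cluster, at 7.03 ± 0.651, 8.13 ± 0.826 and, in shGFP, 5.61 ± 0.651 CPM. HOXB without HOXB13 stood at 57.0 ± 0.960, 60.5 ± 1.42 and, in shGFP, 59.5 ± 2.83 CPM. These sums are descriptions and were not tested. In bulk RNA, fewer cells that express a gene and less RNA per cell cannot be told apart.

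**Figure D2:**
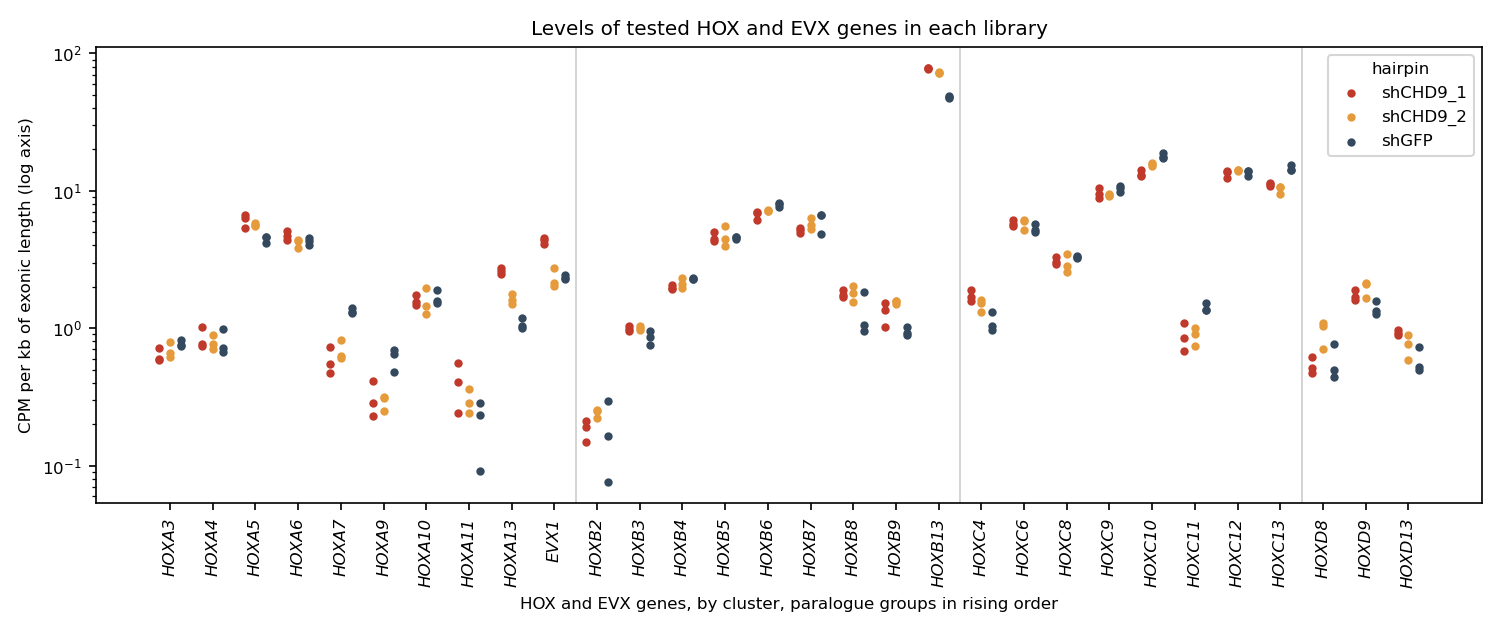
CPM per kb of exonic length on a log axis for each of 30 of the tested genes, by cluster and paralogue group, with 1 point per library (shCHD9_1 red, shCHD9_2 orange, shGFP dark). HOXB13 stands above every other gene in each of the 9 libraries, at 77.9, 72.5 and, in shGFP, 48.1 on average.

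Of 13 tested genes in paralogue groups 9 to 13, 5 were higher and 4 lower for the mean of both hairpins. Over all genes, 22.3% were higher and 23.2% lower. Among the group 13 genes and EVX1 alone, 4 were higher and 1 lower. HOXB13 measured 272, 267 and 271 CPM with shCHD9_1 and 254, 249 and 250 CPM with shCHD9_2, against 170, 166 and 165 CPM with shGFP. All 6 knockdown libraries lay above all 3 shGFP libraries, and shCHD9_1 lay above shCHD9_2. The mean was 1.56-fold higher, a log2 fold change of 0.64 ± 0.02 (SE, adjusted p = 1e-25). With shCHD9_1 it was 0.70 ± 0.03 and with shCHD9_2 0.59 ± 0.03. The difference between hairpins, 0.10 ± 0.03 (adjusted p = 0.0016), did not pass with the GC and length offsets (0.06, adjusted p = 0.074).

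HOXA13 (chromosome 7, 27193503 to 27200106, minus strand) is needed for the limbs and the genital tract, and its loss underlies hand-foot-genital syndrome. It measured 13.2, 12.5 and 13.9 CPM with shCHD9_1 and 8.12, 7.64 and 9.05 CPM with shCHD9_2, against 5.10, 5.25 and 6.04 CPM with shGFP. The 3 groups did not overlap, with shCHD9_1 highest. The log2 fold change was 1.27 ± 0.11 with shCHD9_1 (adjusted p = 7.5e-14) and 0.58 ± 0.11 with shCHD9_2 (adjusted p = 4.4e-05), and the difference between the hairpins was 0.69 ± 0.10 (adjusted p = 2.1e-07).

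EVX1 (chromosome 7, 27242700 to 27250493, plus strand), a repressor known for spinal interneuron identity in mice, lies 42594 bases from HOXA13. It measured 14.7, 13.7 and 15.1 CPM with shCHD9_1 and 9.23, 6.81 and 7.16 CPM with shCHD9_2, against 8.10, 7.63 and 7.72 CPM with shGFP. Only the shCHD9_1 libraries stood apart, and the other 2 groups overlapped. The log2 fold change was 0.89 ± 0.10 with shCHD9_1 (adjusted p = 4.1e-10) and -0.02 ± 0.11 with shCHD9_2 (adjusted p = 0.92), and the difference between hairpins was 0.91 ± 0.10 (adjusted p = 5.1e-10). The mean of both, 0.44 ± 0.09, did not pass when the 6 CHD9 libraries were a single group (0.50, adjusted p = 0.13) and was 0.27 with the GC and length offsets.

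HOXD13, whose mutations cause synpolydactyly, was a low gene. It measured 2.18, 2.00 and 2.05 CPM with shCHD9_1 and 1.31, 1.73 and 1.98 CPM with shCHD9_2, against 1.16, 1.63 and 1.11 CPM with shGFP. The shCHD9_1 libraries lay above the others, and the shCHD9_2 and shGFP libraries overlapped. The log2 fold change was 0.67 ± 0.24 with shCHD9_1 (adjusted p = 0.018) and 0.36 ± 0.24 with shCHD9_2 (adjusted p = 0.27). The shCHD9_1 call was lost without shCHD9_1 replicate 1 or shGFP replicate 1 or 3 (adjusted p = 0.054 to 0.10). The mean, 0.51 ± 0.21 (adjusted p = 0.045), was lost under 11 alternatives. Among them were those without shGFP replicate 1 or 3, any shCHD9_1 replicate, or shCHD9_2 replicate 2 or 3 (adjusted p = 0.058 to 0.22).

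HOXC13 (chromosome 12, 53938765 to 53946544, plus strand), a regulator of hair and nail keratins, was lower. It measured 27.6, 26.9 and 26.3 CPM with shCHD9_1 and 25.8, 23.0 and 25.8 CPM with shCHD9_2, against 37.4, 34.3 and 34.5 CPM with shGFP. All 6 knockdown libraries lay below the shGFP libraries. The log2 fold changes were -0.39 ± 0.06 (adjusted p = 3.9e-07) and -0.51 ± 0.06 (adjusted p = 1.7e-09), and the difference between hairpins, 0.12 ± 0.06, did not pass (adjusted p = 0.14). Its GENCODE 29 exons share 7.1% of their bases with HOXC13-AS on the other strand.

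The posterior HOXC genes next to it did not move together. HOXC12 measured 45.7, 46.6 and 41.0 CPM with shCHD9_1 and 47.1, 46.9 and 46.4 CPM with shCHD9_2, against 46.2, 43.0 and 46.2 CPM with shGFP. The shCHD9_1 libraries overlapped shGFP and the shCHD9_2 libraries lay just above it. The mean log2 fold change was 0.01 ± 0.04 (adjusted p = 0.83), and that with shCHD9_2 was 0.05 ± 0.05 (adjusted p = 0.44). With the GC and length offsets the shCHD9_1 value was -0.17 and passed (adjusted p = 0.0046).

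HOXC11 measured 3.57, 2.22 and 2.79 CPM with shCHD9_1 and 3.25, 2.43 and 2.97 CPM with shCHD9_2, against 4.42, 4.94 and 4.43 CPM with shGFP. Every knockdown library was below every shGFP library, and the log2 fold change was -0.69 ± 0.17 with each hairpin (adjusted p = 0.00062 and 0.00085). HOXC10 (chromosome 12, 53985065 to 53990279, plus strand), which acts in hindlimb and lumbar patterning, was second to HOXB13 per kb in shGFP. It measured 30.2, 33.0 and 29.6 CPM with shCHD9_1 and 37.2, 36.6 and 35.5 CPM with shCHD9_2, against 44.2, 40.1 and 41.0 CPM with shGFP. The 3 groups did not overlap, in the order shCHD9_1, shCHD9_2, shGFP from low to high. HOXC10 fell by 0.43 on the log2 scale with shCHD9_1 (SE 0.05, adjusted p = 8.4e-09) and by 0.19 with shCHD9_2 (SE 0.05, adjusted p = 0.0033), and the difference was -0.24 ± 0.05 (adjusted p = 0.00068). HOXC9 was at 16.1 ± 1.34, 15.5 ± 0.228 and, in shGFP, 17.4 ± 0.878 CPM. Its mean log2 fold change of -0.14 ± 0.07 did not pass (adjusted p = 0.081), but it did with the GC and length offsets (-0.18, adjusted p = 0.020).

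In HOXA, the genes HOXA7 and HOXA9 were lower with each hairpin. Both are known for their part in blood progenitors and leukaemia. HOXA7 (chromosome 7, 27153716 to 27157936, minus strand) measured 1.14, 1.33 and 1.75 CPM with shCHD9_1 and 1.98, 1.45 and 1.51 CPM with shCHD9_2, against 3.10, 3.17 and 3.4 CPM with shGFP. The knockdown and shGFP libraries did not overlap. The log2 fold change was -1.18 ± 0.21 with shCHD9_1 (adjusted p = 1.1e-05) and -0.98 ± 0.21 with shCHD9_2 (adjusted p = 0.00015), and the hairpins did not differ beyond their error (-0.20 ± 0.23, adjusted p = 0.58). HOXA-AS3 covers 62.5% of the HOXA7 exonic bases on the other strand, and without a stated strand setting their reads cannot be told apart. HOXA-AS3 was at 2.02 ± 0.317, 1.29 ± 0.399 and, in shGFP, 1.26 ± 0.191 CPM.

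HOXA9 (chromosome 7, 27162435 to 27175180, minus strand) measured 0.693, 1.24 and 0.857 CPM with shCHD9_1 and 0.753, 0.955 and 0.942 CPM with shCHD9_2, against 2.10, 1.98 and 1.45 CPM with shGFP. The groups of knockdown and shGFP libraries were apart, at a low level. The log2 fold changes were -0.96 ± 0.28 (adjusted p = 0.0039) and -1.04 ± 0.28 (adjusted p = 0.0025). HOXA10, whose gene model overlaps that of HOXA9, was at 5.86 ± 0.522, 5.75 ± 1.34 and, in shGFP, 6.17 ± 0.735 CPM. Its mean log2 fold change was -0.10 ± 0.12 (adjusted p = 0.53). HOXA10-AS covers 13.9% of the HOXA9 and 16.4% of the HOXA10 exonic bases on the other strand. AC004080.3, with a count of 0, shares 13.1% and 9.9% on the same strand, so reads there cannot be told apart. HOXA11, needed for the forearm and for megakaryocytes, had 0.926 ± 0.364, 0.682 ± 0.140 and, in shGFP, 0.469 ± 0.233 CPM. Its log2 fold change of 0.71 ± 0.36 did not pass (adjusted p = 0.10). It passed without shCHD9_1 replicate 3 (0.85, adjusted p = 0.048). HOXA11 shares 31.1% of its exonic bases with HOXA11-AS on the other strand.

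HOXB9 and HOXD9 were higher for the mean of both hairpins. HOXB9 measured 3.96, 3.51 and 2.64 CPM with shCHD9_1 and 4.04, 4.07 and 3.86 CPM with shCHD9_2, against 2.37, 2.65 and 2.29 CPM with shGFP. One shCHD9_1 library fell inside the shGFP range. The log2 fold change was 0.45 ± 0.18 with shCHD9_1 (adjusted p = 0.032) and 0.72 ± 0.17 with shCHD9_2 (adjusted p = 0.00071). The shCHD9_1 call was lost without shCHD9_1 replicate 1 or 2 or shGFP replicate 1 or 3 (adjusted p = 0.070 to 0.19) and in 4 other alternatives.

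HOXD9 measured 3.57, 3.15 and 2.98 CPM with shCHD9_1 and 3.92, 3.11 and 4.01 CPM with shCHD9_2, against 2.94, 2.51 and 2.37 CPM with shGFP. The knockdown libraries lay above the shGFP libraries by a small margin. The mean log2 fold change was 0.40 ± 0.15 (adjusted p = 0.027), passing with shCHD9_2 (0.49 ± 0.17, adjusted p = 0.020) and not with shCHD9_1 (0.31 ± 0.18, adjusted p = 0.15). The mean did not pass with the GC and length offsets (0.27, adjusted p = 0.15) or in the DESeq2 Wald test (adjusted p = 0.06). Nor did the mean pass without shCHD9_1 replicate 1, shCHD9_2 replicate 3, or shGFP replicate 2 or 3 (adjusted p = 0.053 to 0.14). The shCHD9_2 call was lost without shCHD9_2 replicate 1 or 3 or shGFP replicate 2 or 3 (adjusted p = 0.062 to 0.098). It was also lost with the GC and length offsets (0.38, adjusted p = 0.075).

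Of 13 tested genes in paralogue groups 4 to 8, 3 were higher and 2 lower for the mean of both hairpins, where 45.5% of all genes passed. HOXA5, a regulator of lung and thoracic development in mice, measured 10.8, 11.3 and 9.20 CPM with shCHD9_1 and 9.86, 9.67 and 9.38 CPM with shCHD9_2, against 7.15, 7.89 and 7.83 CPM with shGFP. All knockdown libraries were above all shGFP libraries, with log2 fold changes of 0.44 ± 0.10 (adjusted p = 0.00033) and 0.33 ± 0.10 (adjusted p = 0.0079). Its neighbours HOXA4 (0.03 ± 0.22) and HOXA6 (0.05 ± 0.11) did not pass (adjusted p = 0.93 and 0.76). HOXA6 shares 39.3% of its exonic bases with HOXA-AS3 on the other strand. HOXA4 shares 31.0% with AC004080.6 on the same strand and 14.5% with HOXA-AS2 on the other, so reads there cannot be told apart.

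HOXC4 measured 5.20, 4.62 and 4.32 CPM with shCHD9_1 and 4.40, 4.16 and 3.58 CPM with shCHD9_2, against 2.63, 3.57 and 2.83 CPM with shGFP. The lowest knockdown library lay just above the highest shGFP library. Log2 fold changes were 0.64 ± 0.16 (adjusted p = 0.00081) and 0.43 ± 0.16 (adjusted p = 0.030). The shCHD9_2 call was lost without shCHD9_2 replicate 1 or 2 or shGFP replicate 1 or 3 (adjusted p = 0.081 to 0.12) and in the DESeq2 Wald test (adjusted p = 0.066). HOXC4 shares 17.8% of its exonic bases with HOXC6 on the same strand, so reads there cannot be told apart. HOXC6 did not pass for the mean of both hairpins (0.12 ± 0.06, adjusted p = 0.12), nor did HOXC8 (-0.12 ± 0.11, adjusted p = 0.38). HOXC6 passed without shCHD9_2 replicate 2 (0.17, adjusted p = 0.034).

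HOXB8, which marks a line of blood-derived microglia in mice, measured 3.47, 3.91 and 3.58 CPM with shCHD9_1 and 4.12, 3.67 and 3.20 CPM with shCHD9_2, against 2.16, 3.75 and 1.95 CPM with shGFP. The value of 3.75 CPM is shGFP replicate 2, which reached the knockdown range. The mean log2 fold change was 0.49 ± 0.16 (adjusted p = 0.013), 0.84 without shGFP replicate 2, 0.39 without shGFP replicate 1 (adjusted p = 0.089) and 0.29 without shGFP replicate 3 (adjusted p = 0.22). The calls with each hairpin, both near a log2 fold change of 0.5 (0.48 and 0.49), were lost without shGFP replicate 1 or 3 (adjusted p = 0.13 to 0.28). They were also lost without shCHD9_1 replicate 2 or 3, or shCHD9_2 replicate 1 or 2, for the hairpin concerned (adjusted p = 0.059 to 0.12). The same held with the GC and length offsets (adjusted p = 0.060 to 0.078) and in the DESeq2 Wald test (adjusted p = 0.068 and 0.077). As a single group of 6 CHD9 libraries, the mean did not pass (adjusted p = 0.062).

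HOXB6 was lower for the mean of both hairpins, at 17.4 ± 1.18, 18.6 ± 0.0853 and, in shGFP, 20.5 ± 0.651 CPM. Its log2 fold change was -0.19 ± 0.06 (adjusted p = 0.0074), with the 6 knockdown libraries below the shGFP libraries, and -0.17 without shGFP replicate 3 (adjusted p = 0.054). It passed with shCHD9_1 (-0.24 ± 0.07, adjusted p = 0.0042) and not with shCHD9_2 (-0.15 ± 0.07, adjusted p = 0.097), and the hairpins did not differ beyond their error (-0.10 ± 0.07, adjusted p = 0.34). HOXB6 shares 16.6% of its exonic bases with HOXB3 on the same strand and 16.3% with HOXB-AS3 on the other. Reads there cannot be told apart without the settings of the read counter. HOXB4, HOXB5 and HOXB7 did not pass in any comparison, with mean log2 fold changes of -0.16 ± 0.09, 0.01 ± 0.09 and -0.13 ± 0.10. HOXB4 passed as lower with the GC and length offsets (-0.22, adjusted p = 0.041), and HOXB7 without shGFP replicate 3 (-0.28, adjusted p = 0.025).

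HOXD8 differed between the hairpins. It measured 1.63, 1.24 and 1.34 CPM with shCHD9_1 and 1.86, 2.74 and 2.87 CPM with shCHD9_2, against 1.16, 2.03 and 1.30 CPM with shGFP. The hairpin groups did not overlap each other, and both overlapped shGFP. Against shGFP the log2 fold change was -0.10 ± 0.26 with shCHD9_1 (adjusted p = 0.78) and 0.73 ± 0.23 with shCHD9_2 (adjusted p = 0.011), and the difference was -0.83 ± 0.23 (adjusted p = 0.0053). The shCHD9_2 call was lost without shCHD9_2 replicate 2 or 3 or shGFP replicate 1 or 3 (adjusted p = 0.055 to 0.071).

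Among the anterior genes of groups 1 to 3, HOXB3 was higher by a narrow margin. HOXB3, at 7.43 ± 0.314, 7.47 ± 0.247 and, in shGFP, 6.38 ± 0.698 CPM, had a mean log2 fold change of 0.24 ± 0.10 at the edge of the threshold (adjusted p = 0.048). It passed with neither hairpin alone, and the mean call was lost under 11 alternatives. The smallest value was 0.15 without shGFP replicate 3 (adjusted p = 0.33). The call was also lost without shGFP replicate 2, shCHD9_1 replicate 1 or 2, or shCHD9_2 replicate 1 or 2 (adjusted p = 0.057 to 0.089). HOXB3 shares 5.8% of its exonic bases with HOXB6 on the same strand. HOXA3 (-0.23 ± 0.15, adjusted p = 0.21) and HOXB2 (0.30 ± 0.40, adjusted p = 0.57) did not pass.

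The 10 genes under the filter were HOXA2, HOXB1, HOXC5, HOXD1, HOXD3, HOXD4, HOXD10, HOXD11, HOXD12 and EVX2. HOXB1, HOXD1 and HOXD10 had no count in any of the 9 libraries. The highest count of any was 10 for HOXA2, with sums over 3 libraries of 17 in shCHD9_1, 14 in shCHD9_2 and 6 in shGFP. HOXC5 summed to 7, 11 and, in shGFP, 13 counts, HOXD4 to 12, 12 and 9, HOXD3 to 2, 7 and 4, HOXD12 to 5, 4 and 2, and EVX2 to 3, 5 and 4. HOXD11 had 3 counts, all with shCHD9_1. HOXD4 shares 80.5% and HOXD3 62.2% of its exonic bases with AC009336.2, an overlapping gene model on the same strand with a count of 0. HOXC5 shares 59.9% with its second identifier and 33.9% with AC012531.2, both on the same strand with a count of 0. HOXD10 shares 16.8% with HOXD11. The counts of these genes depend on how shared reads were treated. HOXB2 and HOXA11 were among the tested genes nearest the filter.

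The noncoding RNAs of the HOX clusters were compared with the coding genes beside them. Of 25 listed, 13 were tested, and for the mean of both hairpins 2 were higher and 1 lower (45.5% of all genes passed), of which HOXC-AS3 alone passed with the GC and length offsets. HOXC-AS3, which overlaps 2.7% of the HOXC10 exonic bases on the other strand, measured 3.71, 4.66 and 5.96 CPM with shCHD9_1 and 6.18, 5.02 and 4.95 CPM with shCHD9_2, against 7.36, 7.36 and 6.91 CPM with shGFP. It was lower in all 6 knockdown libraries, with log2 fold changes of -0.57 ± 0.14 (adjusted p = 0.0005) and -0.42 ± 0.13 (adjusted p = 0.0098). The shCHD9_2 call was lost without shCHD9_2 replicate 2 (-0.36, adjusted p = 0.062). HOXC10 beside it was also lower, as given above.

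HOTTIP, transcribed from the HOXA13 end of the cluster and known to hold active chromatin marks over the 5′ HOXA genes, measured 1.24, 1.73 and 1.19 CPM with shCHD9_1 and 1.31, 0.801 and 1.18 CPM with shCHD9_2, against 0.999, 0.617 and 0.726 CPM with shGFP. The shCHD9_1 libraries lay above shGFP and the shCHD9_2 libraries overlapped it. The log2 fold change was 0.84 ± 0.31 with shCHD9_1 (adjusted p = 0.023) and 0.48 ± 0.32 with shCHD9_2 (adjusted p = 0.25). The shCHD9_1 call was lost without shCHD9_1 replicate 2 or shGFP replicate 2 or 3 (adjusted p = 0.069 to 0.13). The mean of both, 0.66 ± 0.28 (adjusted p = 0.049), was lost under 11 of 17 alternatives. Among them were those without shCHD9_1 replicate 2, shCHD9_2 replicate 1 or 3, or shGFP replicate 2 or 3 (adjusted p = 0.07 to 0.19). EVX1-AS, which shares 15.9% of the EVX1 exonic bases, was at 0.863 ± 0.208, 0.719 ± 0.203 and, in shGFP, 0.522 ± 0.088 CPM and did not pass (0.60 ± 0.33, adjusted p = 0.13). HOXA-AS3 passed with shCHD9_1 (0.69 ± 0.25, adjusted p = 0.022) and between the hairpins (0.63 ± 0.25, adjusted p = 0.047), and not for the mean of both (adjusted p = 0.19). The shCHD9_1 call was lost without shCHD9_1 replicate 1 or shGFP replicate 2 or 3 (adjusted p = 0.063 to 0.11) and with the GC and length offsets (0.59, adjusted p = 0.052). The call between the hairpins was lost under 9 of 17 alternatives (adjusted p = 0.051 to 0.20). These were the offsets (0.58), the DESeq2 Wald test, no low-count filter, and leaving out any shCHD9_1 replicate, shCHD9_2 replicate 2 or 3, or shGFP replicate 2.

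HOXC-AS2, at no more than 1.07 CPM in any library, had a mean log2 fold change of 1.14 ± 0.46 (adjusted p = 0.036), which was lost under 10 of 16 alternatives. Among them were those without any shGFP replicate, shCHD9_1 replicate 2, or shCHD9_2 replicate 1 or 2 (adjusted p = 0.071 to 0.13). HOTAIR, a trans-acting RNA of the HOXC cluster, was at 2.38 ± 0.345, 2.47 ± 0.509 and, in shGFP, 2.60 ± 0.468 CPM (-0.09 ± 0.17, adjusted p = 0.72). HOTAIRM1, HOXA-AS2, HOXA10-AS, HOXB-AS1, HOXB-AS3, HOXC-AS1 and HOXC13-AS did not pass in any comparison, with mean log2 fold changes between -0.59 and 0.52.

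**Figure D3:**
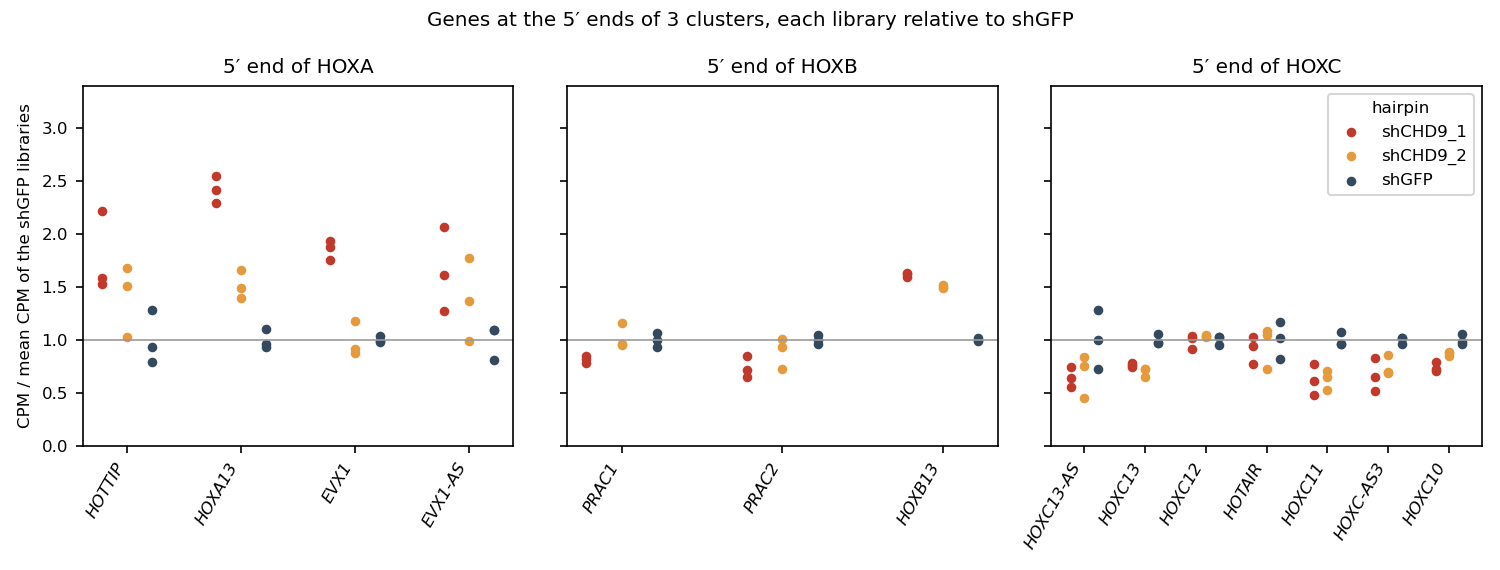
CPM of each library divided by the mean of the shGFP libraries, for genes at the 5′ ends of HOXA, HOXB and HOXC (shCHD9_1 red, shCHD9_2 orange, shGFP dark, line at 1). HOXB13 stands above 1 in all 6 knockdown libraries beside PRAC1 and PRAC2, and HOXC12 and HOTAIR scatter around 1 between the lower HOXC13, HOXC11 and HOXC10.

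Of 20 tested genes beside the HOX clusters, 2 were higher and 8 lower for the mean of both hairpins, and 5 and 6 with the GC and length offsets, where 22.3% of all genes were higher and 23.2% lower. The 4 with the smallest p were CBX5, SKAP2, TAX1BP1 and LNPK. CBX5, which encodes the heterochromatin protein HP1 alpha and lies beside HOXC, was at 661 ± 2.98, 794 ± 28.6 and, in shGFP, 869 ± 18.5 CPM (-0.26 ± 0.02, adjusted p = 1.4e-14). SKAP2, at the anterior side of HOXA, was at 22.5 ± 2.20, 27.0 ± 1.20 and, in shGFP, 36.3 ± 2.21 CPM (-0.56 ± 0.05, adjusted p = 9.4e-12). TAX1BP1 fell by 0.24 on the log2 scale (SE 0.03, adjusted p = 9.7e-09). LNPK, beside EVX2, was higher (0.31 ± 0.06, adjusted p = 2.6e-05, and 0.47 with the offsets).

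PRAC1 and PRAC2, small genes of prostate and distal colon that lie next to HOXB13, were singled out after their values were seen. PRAC2 ends 5 bases from HOXB13 and PRAC1 2241 bases from it. PRAC2 measured 4.61, 6.0 and 5.07 CPM with shCHD9_1 and 7.17, 5.18 and 6.60 CPM with shCHD9_2, against 6.84, 7.10 and 7.41 CPM with shGFP. Its mean log2 fold change was -0.32 ± 0.11 (adjusted p = 0.014), opposite in sign to that of HOXB13, and did not pass without shCHD9_2 replicate 2 or shGFP replicate 3 (-0.25 and -0.29, adjusted p = 0.057 and 0.078) or when both hairpins formed 1 group (adjusted p = 0.093). PRAC2 passed with shCHD9_1 (-0.45 ± 0.13, adjusted p = 0.0037) and not with shCHD9_2 (-0.19 ± 0.12, adjusted p = 0.24). PRAC1 was at 5.38 ± 0.229, 6.74 ± 0.787 and, in shGFP, 6.58 ± 0.451 CPM, with a mean of -0.13 ± 0.10 that did not pass (adjusted p = 0.32). It passed as lower with shCHD9_1 (-0.30 ± 0.12, adjusted p = 0.045) and between the hairpins (-0.32 ± 0.12, adjusted p = 0.036). Both calls were lost on leaving out any shCHD9_1 replicate (adjusted p = 0.051 to 0.14). On the other side, HOXB9 lies 98407 bases from HOXB13.

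The TALE homeodomain genes listed include the PBX and MEIS cofactors of HOX proteins and the TGIF genes. Of these, 4 of 8 tested were higher for the mean of both hairpins, as were 22.3% of all genes, and the others did not pass. PKNOX1, a MEIS-related cofactor, was at 34.6 ± 0.311, 36.9 ± 0.643 and, in shGFP, 30.5 ± 1.16 CPM (0.23 ± 0.05, adjusted p = 6.9e-05). TGIF2, a repressor of the same class, had a mean of 0.20 ± 0.04 (adjusted p = 0.00018). Its shCHD9_2 call (0.13 ± 0.05, adjusted p = 0.037) was lost with the GC and length offsets (adjusted p = 0.066) and in the DESeq2 Wald test (adjusted p = 0.073), among others. MEIS3 had a mean of 0.36 ± 0.12 (adjusted p = 0.011) that did not pass with the GC and length offsets (0.20, adjusted p = 0.17). It passed with shCHD9_1 (0.47 ± 0.13, adjusted p = 0.0032) and not with shCHD9_2 (0.25 ± 0.14, adjusted p = 0.16). MEIS1, PBX3, PBX4 and TGIF1 did not pass for the mean, MEIS1 at -0.30 ± 0.13 (adjusted p = 0.056).

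NK-type homeobox genes, relatives of the HOX genes outside the clusters, gave 15 higher and 1 lower of 26 tested, against 22.3% and 23.2% of all genes (8 and 3 with the GC and length offsets). MSX1 was at 10.6 ± 0.727, 10.0 ± 0.380 and, in shGFP, 5.65 ± 0.291 CPM (0.86 ± 0.09). DLX3 (1.40 ± 0.18) and HLX (1.37 ± 0.19) were higher from about 1 CPM in shGFP (1.32 and 1.12 CPM). The lower gene, DLX5, named after its value was seen, was at 0.162, 0.264 and, in shGFP, 0.525 CPM (-1.24 ± 0.50, adjusted p = 0.035).

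Of the ParaHox and related genes, 3 of 11 were tested, and the caudal genes CDX1, CDX2 and CDX4 were not among them. MNX1 was at 52.1 ± 1.47, 45.1 ± 0.652 and, in shGFP, 41.6 ± 2.66 CPM. Its mean log2 fold change of 0.22 ± 0.04 (adjusted p = 2.8e-05) turned to -0.04 with the GC and length offsets. PDX1 (-0.25 ± 0.11, adjusted p = 0.051) and GBX2 (-0.37 ± 0.16, adjusted p = 0.057) did not pass, and did with the offsets (-0.36 and -0.51).

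Among the Polycomb and Trithorax regulators of HOX genes, 12 were higher and 9 lower of 42 tested (16 and 13 with the GC and length offsets), where 45.5% of all genes passed. The median size of their log2 fold changes was 0.10, against 0.17 for all genes, with no matching for count level. CBX2, a chromodomain subunit of Polycomb repressive complex, was at 102 ± 0.912, 86.1 ± 3.74 and, in shGFP, 68.2 ± 1.56 CPM (0.45 ± 0.03, adjusted p = 1.8e-15). RBBP7, a histone-binding subunit shared with other complexes, was higher by 0.32 ± 0.03 (adjusted p = 2.2e-14). MEN1, which encodes menin, the partner of the MLL methyltransferases at HOX genes, was at 190 ± 4.17, 179 ± 2.30 and, in shGFP, 144 ± 7.74 CPM (0.36 ± 0.03, adjusted p = 2.4e-14, and 0.23 with the offsets). MLLT3, a subunit of the super elongation complex and a fusion partner of MLL in leukaemia, was at 15.3 ± 0.849, 17.3 ± 1.23 and, in shGFP, 26.8 ± 1.21 CPM (-0.72 ± 0.06, adjusted p = 1e-13).

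Retinoic acid is a classical inducer of anterior HOX genes. Of 13 tested genes of its signalling, 6 were higher and 3 lower (3 and 2 with the GC and length offsets), where 22.3% and 23.2% of all genes were. ALDH1A1, which makes retinoic acid, measured 99.9, 101 and 101 CPM with shCHD9_1 and 77.6, 72.2 and 73.7 CPM with shCHD9_2, against 207, 195 and 203 CPM with shGFP. It fell by 1.22 on the log2 scale for the mean of both (SE 0.03, adjusted p = 9.7e-34). CRABP2, which carries retinoic acid to its receptors, was at 18.0 ± 1.06, 14.4 ± 1.61 and, in shGFP, 8.54 ± 0.401 CPM (0.92 ± 0.08, adjusted p = 4.5e-13). DHRS3, which returns retinal to retinol, fell by 0.32 (SE 0.05, adjusted p = 2.6e-06). RXRA passed with shCHD9_1 (0.50 ± 0.04, adjusted p = 1.4e-13) and not with shCHD9_2 (0.04 ± 0.04, adjusted p = 0.50). Its mean of 0.27 ± 0.04 (adjusted p = 6.3e-08) did not pass with the offsets (0.06, adjusted p = 0.20). Nor did it pass when the 6 CHD9 libraries were a single group (0.29, adjusted p = 0.08).

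**Figure D4:**
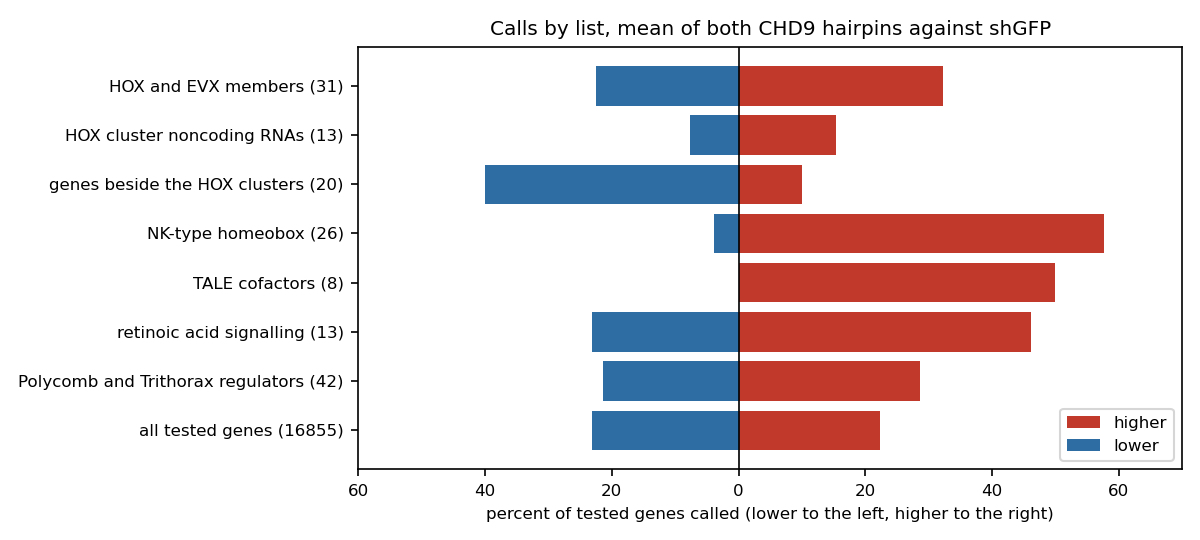
Percent of the tested genes of each list called higher (red, right) or lower (blue, left) for the CHD9 hairpins averaged and set against shGFP, with the number tested in brackets. The HOX and EVX genes gave 10 higher and 7 lower of 31, a split that was 8 and 9 with the GC and length offsets, and NK-type genes 15 and 1 of 26 (8 and 3 with the offsets), beside 22.3% and 23.2% of all genes.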

How the data were processed

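Per the labels' protocols, RNA was extracted with a column kit and made into libraries with a directional kit. The submitters' processing notes name Trim Galore, STAR, hg38 and DESeq2. The read counter, the strand option it ran with and the release of its annotation were not given in the sources used here. Raw counts per gene, deposited by the authors as 1 table of 9 libraries, were the starting values. Symbols were found for 58617 of 67071 identifiers. Positions and exonic lengths are those of GENCODE 29 on GRCh38.

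Genes were filtered with filterByExpr (minimum count 10), scaled by TMM and fitted with the quasi-likelihood test of edgeR 4.0.16 (R 4.3.3), with a mean for each of 3 groups over all 9 libraries. Adjusted p-values are Benjamini-Hochberg values over 16855 genes, called under 0.05. CPM use TMM-scaled totals. The test was tried on counts simulated with the spread of its own fit, so the trial cannot speak to replicates that may be technical. Alternatives were DESeq2 size factors, voom with limma 3.58.1, the Wald test of DESeq2 1.42.0, no filter, 1 CPM in 6 libraries, an adjusted p under 0.01, the compared groups alone, the 6 CHD9 libraries as a single group, a replicate block, GC and length offsets, and leaving out each library.

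The genes and lists were chosen with earlier results of these data known. Named genes are all HOX and EVX genes, CHD9, each tested noncoding RNA of the clusters, and the 4 genes of smallest p of each other list for the mean of both hairpins. Other list genes were named after their values were seen. Some genes under this rule are not reported here.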

Additional observations from a re-analysis of the deposited data

Results flagged for a closer look

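For 5 HOX and EVX genes the effects of the 2 hairpins differed in the edgeR test of shCHD9_1 against shCHD9_2, where 29.2% of all genes did. The log2 difference, hairpin 1 minus hairpin 2, was 0.91 for EVX1, 0.69 for HOXA13, 0.10 for HOXB13, -0.24 for HOXC10 and -0.83 for HOXD8. EVX1 and HOXD8 each passed against shGFP with a single hairpin. HOXA13, HOXB13 and HOXC10 passed in the same direction with each. CHD9 itself differed between the hairpins by -0.28 ± 0.07 (adjusted p = 0.0024), or -0.17 with the GC and length offsets (adjusted p = 0.071), and its part in these differences was not tested.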

How the results depend on the processing

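The number of HOX and EVX genes called stayed within 1.5 times under every alternative tried, between 13 and 18 for the mean of both hairpins (17), 12 and 16 with shCHD9_1 (15), 9 and 13 with shCHD9_2 (13), and at 5 between the hairpins. Under all alternatives other than the stricter threshold, 10 of the 17, 12 of the 15, 9 of the 13 and 4 of the 5 kept their calls wherever a value could be had. HOXA9, HOXA11 and HOXB2 have none with the filter of 1 CPM in 6 libraries. For CHD9 with shCHD9_2, the call was lost without shGFP replicate 3 (-0.20, adjusted p = 0.054), and leaving out single libraries gave -0.29 to -0.20. With GC and length offsets, MNX1 turned to -0.04 for the mean of both and to -0.09 with shCHD9_2, and RXRA with shCHD9_2 to -0.11 (adjusted p = 0.037). The causes were not tested. Same-numbered libraries did not deviate together (correlations of -0.022 to 0.040), so the numbers are not taken as pairs. With the replicate block the counts were 16, 15, 13 and 5, the lost call being HOXB3 for the mean of both hairpins (0.23, adjusted p = 0.053). Among the tested HOX and EVX genes, HOXB2 and HOXA11, on average under 1 CPM in every group, had the largest errors for the mean of both hairpins (SE 0.40 and 0.36).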
